A study of Mus musculus with 2 samples.

Results

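Heat shock proteins and chaperones help other proteins to fold, keep unfolded chains from clumping and bring damaged ones back or hand them over for degradation. The mouse genes for these proteins were followed here on 2 Illumina beadchip arrays, 1 of mouse embryonic stem cells (mESCs) kept in LIF and 1 of mESCs given LIF plus CHIR99021 (CHIR). Members were taken by gene identifier, as every identifier beginning with Hspa, Hspb, Hspd, Hspe, Hsph or Hsp9, with Dnaja, Dnajb or Dnajc and a number, or with Cct and a number. The rule found 70 of the 30774 identifiers on the arrays. By family these were 3 Hsp90, 12 Hspa, 7 Hspb, 2 Hspd or Hspe, 8 Cct, 3 Dnaja, 13 Dnajb and 21 Dnajc identifiers, with Hspbap1, a protein that binds a small heat shock protein, as the remaining one. No Hsph identifier was found, because Hsph1 was listed under its older name, Hsp105. The cells are labelled B6 mESCs of inner cell mass origin from E3.5 embryos. Both cultures shared a serum medium and LIF, a cytokine that signals through Stat3, and the treated one also received CHIR, an inhibitor of the kinase GSK3 that turns on Wnt/β-catenin signaling, for 12 h. The dose of CHIR is not given for the arrays. The question the arrays were made for was which genes CHIR raises in mESCs, to find those that Stat3 stimulation raises as well.

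The families work as a relay. Hsp70 proteins (Hspa genes) grip short stretches of unfolded chains and let go as they split and exchange ATP. J-domain proteins (Dnaj genes) bring them their clients and start ATP hydrolysis, and Hsp110 proteins (Hsph and some Hspa genes) reload them with ATP. Hsp90 proteins take over late folding steps of kinases and steroid receptors. Small heat shock proteins (Hspb genes) hold unfolded chains without using ATP, and the chaperonins enclose a chain in a barrel, Hsp60 with Hsp10 in mitochondria and the TRiC complex (Cct genes) in the cytosol, where actin and tubulin are its best known clients. Many of these genes carry heat shock elements, inverted repeats of the letters GAA to which heat shock factors bind, and those of the endoplasmic reticulum (ER) can carry an ER stress element.

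Promoters that bear such elements are shown because the identifier rule did not use them and because pairs of genes with the same element can be set side by side. RefSeq windows of 300 bases (250 before to 50 after a start site, build GRCm38.p6) were matched to 58 of the 70 members, giving 75 windows. A heat shock element of 3 units, GAA, TTC and GAA with 2 free bases (NN) between neighbours, was searched on both strands and found in 4 of these windows, which belong to Dnajb6, Hspd1 and Hspe1, and in 0.603% of all 32851 windows. Dnajb6 has 2 overlapping windows that hold the same element, 46 and 127 bases before their start sites, so the 4 windows include repeats of 1 element. Parts of 2 units, which overlap the form of 3 units, were more widespread. GAANNTTC was found in 13 member windows (12 genes) and 7.86% of all windows, and TTCNNGAA in 8 member windows (7 genes) and 8.52%. The ER stress element, CCAAT and CCACG with 9 free bases between them, was found in 3 member windows, those of Hsp90b1, Hspa5 and Dnajc3a, and in 0.119% of all windows. Hspd1 and Hspe1, the mitochondrial chaperonin and its lid, are transcribed head to head, with start sites 216 bases apart for 1 of the 2 Hspd1 start sites and windows that share 285 bases, and the elements lie in the shared stretch. Capitals mark the heat shock and ER stress elements, and each sequence is read 5′ to 3′ on the strand of its gene.
Hspe1 (shared with Hspd1 on the other strand), chr1:55087898-55088197, strand +: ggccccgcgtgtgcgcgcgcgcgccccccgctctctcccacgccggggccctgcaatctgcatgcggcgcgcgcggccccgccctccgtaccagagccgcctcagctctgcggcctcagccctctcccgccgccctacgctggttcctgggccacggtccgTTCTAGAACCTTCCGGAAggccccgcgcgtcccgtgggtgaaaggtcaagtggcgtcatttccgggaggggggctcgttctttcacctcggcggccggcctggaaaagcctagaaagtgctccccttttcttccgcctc
Dnajb6, chr5:29735648-29735947, strand +: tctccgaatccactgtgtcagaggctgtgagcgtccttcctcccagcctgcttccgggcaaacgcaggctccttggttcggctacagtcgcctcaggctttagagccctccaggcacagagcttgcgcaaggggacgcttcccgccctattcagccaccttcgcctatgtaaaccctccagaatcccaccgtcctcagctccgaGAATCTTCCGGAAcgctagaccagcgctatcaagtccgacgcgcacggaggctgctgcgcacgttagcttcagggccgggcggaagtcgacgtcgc
Hspb8, chr5:116422815-116423114, strand -: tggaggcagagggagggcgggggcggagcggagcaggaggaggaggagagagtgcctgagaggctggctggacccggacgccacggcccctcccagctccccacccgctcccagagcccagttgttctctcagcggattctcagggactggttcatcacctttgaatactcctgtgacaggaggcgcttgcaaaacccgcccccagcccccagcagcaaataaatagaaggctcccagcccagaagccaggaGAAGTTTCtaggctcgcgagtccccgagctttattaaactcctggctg
Hsp90b1, chr10:86705395-86705694, strand -: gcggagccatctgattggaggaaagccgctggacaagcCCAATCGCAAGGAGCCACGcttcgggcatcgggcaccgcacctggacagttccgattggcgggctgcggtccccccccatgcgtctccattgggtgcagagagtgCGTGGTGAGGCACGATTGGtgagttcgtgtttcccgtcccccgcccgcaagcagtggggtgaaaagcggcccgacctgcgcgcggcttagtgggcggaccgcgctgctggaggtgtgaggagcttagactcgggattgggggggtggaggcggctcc
In the Hspe1 window the capitals form 1 run of 18 bases, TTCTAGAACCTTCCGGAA, that begins 89 bases before the start site. In the Dnajb6 window the run GAATCTTCCGGAA has 13 bases and begins 46 bases before the start. Hspb8 holds the short form GAAGTTTC at its start site, and Hsp90b1 holds 2 ER stress elements, the first as read and the second on the opposite strand. The pattern CTTTGAT, a form of the Tcf/Lef site through which β-catenin acts, was found in 3.73% of all windows and in 5 member windows, those of Cct5, Cct8, Dnajc4 and Hspb6. These matches describe the sequence and show no binding.

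The signal of a beadchip identifier is the brightness of its beads after the background has been taken off, in arbitrary units, and its detection p-value compares it with the negative control beads. An identifier counted as detected with a detection p-value under 0.01. Over the whole arrays, the detection p-value was met by 9021 identifiers in LIF and by 9174 in LIF plus CHIR ("with CHIR"), with median signals of 10.5 and 10.4. Of 10 mESC markers, 9 were matched and 7 detected on both arrays, with Pou5f1 at 12346 in LIF and 11309 with CHIR. The others of the 7 lay on both sides. Higher with CHIR were Nanog (1660 and 2429), Klf4 (965.7 and 1444), Esrrb (10986 and 14053) and Zfp42 (1886 and 1993). Utf1 (5585 and 3972) and Fgf4 (712.7 and 430.1) were lower. Tdgf1 and Sox2 did not count as detected. Of 6 fibroblast markers none was detected, and their summed signal was 213.9 and 214.7. Thy1 among them had 222.3 and 225.3, with combined detection p-values over the limit. Of 5 primitive endoderm markers 1, Sox7, was detected, with signals of 45.9 and 59.0. Axin2, which Wnt signaling induces and which feeds back on it, had a signal of 314.1 in LIF and 1178 with CHIR. With 1 array per condition differences have no replicate check and carry no p-value, and CHIR cannot be told apart from whatever else set the 2 cultures apart. In bulk RNA, fewer cells with a transcript and less of it per cell cannot be told apart either.

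Signals of the detected chaperones were nearly the same in both cultures. Of the 70 members, 29 were detected, every one of them on both arrays. Of all 30774 identifiers 9615 were detected, 8580 of them on both arrays. The median log2 fold change of LIF plus CHIR over LIF was 0.01 over the 29, beside 0.00 over all 9615 detected identifiers. Of the 29, 0 were higher with CHIR by 1.5-fold or more, where 4.11% of all detected identifiers were, and 1, Cct6b, was at least 1.5-fold lower, where 4.02% were. Since all 29 were detected on both arrays, the nearer background is the 8580 identifiers that were too, of which 2.37% were higher and 2.65% lower by that much. At a smaller limit, with the brighter signal at least 25% above the dimmer, Hspb8 was the 1 member that was higher (11.1% of all detected identifiers and 8.51% of those detected on both arrays were) and Cct6b the 1 that was lower (10.8% and 9.09%). For 22 of the 29 the signals lay within 1.1-fold of each other, or 75.9%, beside 47.7% of all detected identifiers and 50.8% of those detected on both arrays. Fold changes spread less among bright identifiers, so the same was read by brightness. Where the brighter signal was 1000 or more, 16 of 19 members (84.2%) and 63.2% of the 3211 identifiers detected on both arrays were within 1.1-fold, and where it was between 100 and 1000, 6 of 9 members (66.7%) and 45.2% of such 4301 were. Log2 fold changes were above 0 for 17 members and below 0 for 12, and 49.3% of the 8580 were above 0. These shares describe 2 arrays, and whether the chaperones differ from other genes in this respect was not tested.

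**Figure D1:**
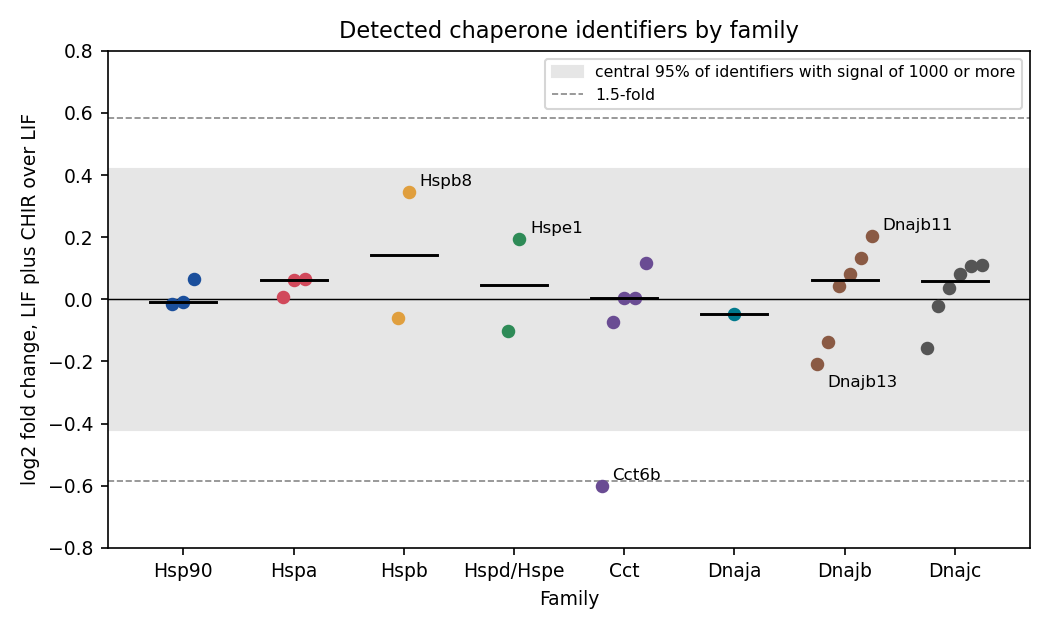
Log2 fold change of LIF plus CHIR over LIF (vertical axis) for the 28 detected heat shock and chaperone identifiers by family (horizontal axis), without Hspbap1. Each point is 1 identifier, black bars are family medians and dashed lines mark 1.5-fold. The grey band holds the central 95% of all identifiers with a brighter signal of 1000 or more (-0.42 to 0.42), and every point but Cct6b lies inside it. Cct6b has signals under 100 and lies inside the central 95% of such identifiers detected on both arrays (-0.64 to 0.56).

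In the Hsp90 and Hspa families every detected identifier was within 1.1-fold. Hsp90ab1, the constitutive cytosolic Hsp90, had a signal of 19097 in LIF and 18877 with CHIR, a log2 fold change of -0.02. Hsp90aa1, the stress-inducible form, had signals of 221.8 and 220.2, a log2 fold change of -0.01. Hsp90b1, the Hsp90 of the ER that is also called Grp94, had 2304 and 2413, or 0.07. Of the 3 Hsp90 identifiers, Hsp90b1 was thus above 0 and the others below it. Hspa8, the constitutive Hsc70, had a signal of 23528 in LIF and 24599 with CHIR, a log2 fold change of 0.06. Hspa9, the mitochondrial Hsp70 (mortalin), had 17898 and 18683, again 0.06. Hspa2, best known from male germ cells, had 267.1 and 268.2, or 0.01. An identifier described as similar to Hspa8, LOC666904, had signals of 33721 and 35397 (0.07), and signals of Hspa8 and of near-identical copies are uncertain where a probe matches both.

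Of the 12 Hspa identifiers the other 9 were not detected. Among them were both stress-inducible cytosolic Hsp70 genes, whose near-identical sequences make each signal uncertain. Hspa1a had signals of 25.5 in LIF and 23.2 with CHIR, and Hspa1b had -7.48 and 1.20. Hspa5, the Hsp70 of the ER (BiP), had signals of -0.75 and -7.63, below the background that had been taken off. Its protein is one that secreting and dividing cells are known to need, and a signal at the level of the negative controls sets no level for its RNA. Hsp105, the older name of Hsph1, a nucleotide exchange factor of Hsp70, had signals of 5609 and 5811 (log2 fold change 0.05). Hspa4 and Hspa4l, which act in the same way, were not detected, with signals of 18.5 and 16.3 for Hspa4 and 22.2 and 1.20 for Hspa4l.

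The largest increase among the detected members was that of a small heat shock protein. Hspb8, which works with the co-chaperone Bag3 to send proteins to autophagy, had a signal of 1548 in LIF and 1967 with CHIR. The ratio was 1.27 (0.35 on the log2 scale), inside the central 95% of the 3269 identifiers of that brightness, which ran from -0.42 to 0.42. Its partner Bag3 had signals of 1308 and 1423, or 1.09-fold. Hspb6, a small heat shock protein of muscle, had 857.2 and 821.7, a log2 fold change of -0.06, so the detected Hspb identifiers lay on both sides of 0. Hspb1 (Hsp27, named Hsp25 in the mouse), which binds stressed actin filaments and unfolded chains, had signals of 4172 and 4191, a ratio of 1.00, but did not count as detected, with combined detection p-values of 0.42 in LIF and 0.32 with CHIR. The other 4 Hspb identifiers, Hspb2, Hspb3, Hspb7 and Hspb9, were not detected, with signals from -13.1 to 16.2.

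The mitochondrial chaperonin pair differed in direction. Hspd1 (Hsp60) had a signal of 4131 in LIF and 3845 with CHIR, 1.07-fold lower, and Hspe1 (Hsp10), which closes the barrel, had 355.0 and 406.3, 1.14-fold higher. The log2 fold changes were -0.10 and 0.19. Each lay inside the central 95% of identifiers of its brightness detected on both arrays, -0.42 to 0.42 for Hspd1 and -0.69 to 0.67 for Hspe1. The genes share the promoter shown above for 1 of the 2 Hspd1 start sites. Dnajb6, the third gene with the long heat shock element and a suppressor of protein aggregation, had 2683 and 2437, a log2 fold change of -0.14. The genes with that element thus lay on both sides of 0. Of the 9 members on a list of well-known heat shock factor 1 targets, 5 were detected, with log2 fold changes from -0.10 to 0.19, and for 0 of them was the brighter signal 25% above the dimmer. Of all identifiers detected on both arrays, 82.4% were likewise under that limit. Dnajb1, the Hsp40 whose transcript is a common readout of heat shock, had signals of 4710 and 4988, or 1.06-fold higher.

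**Figure D2:**
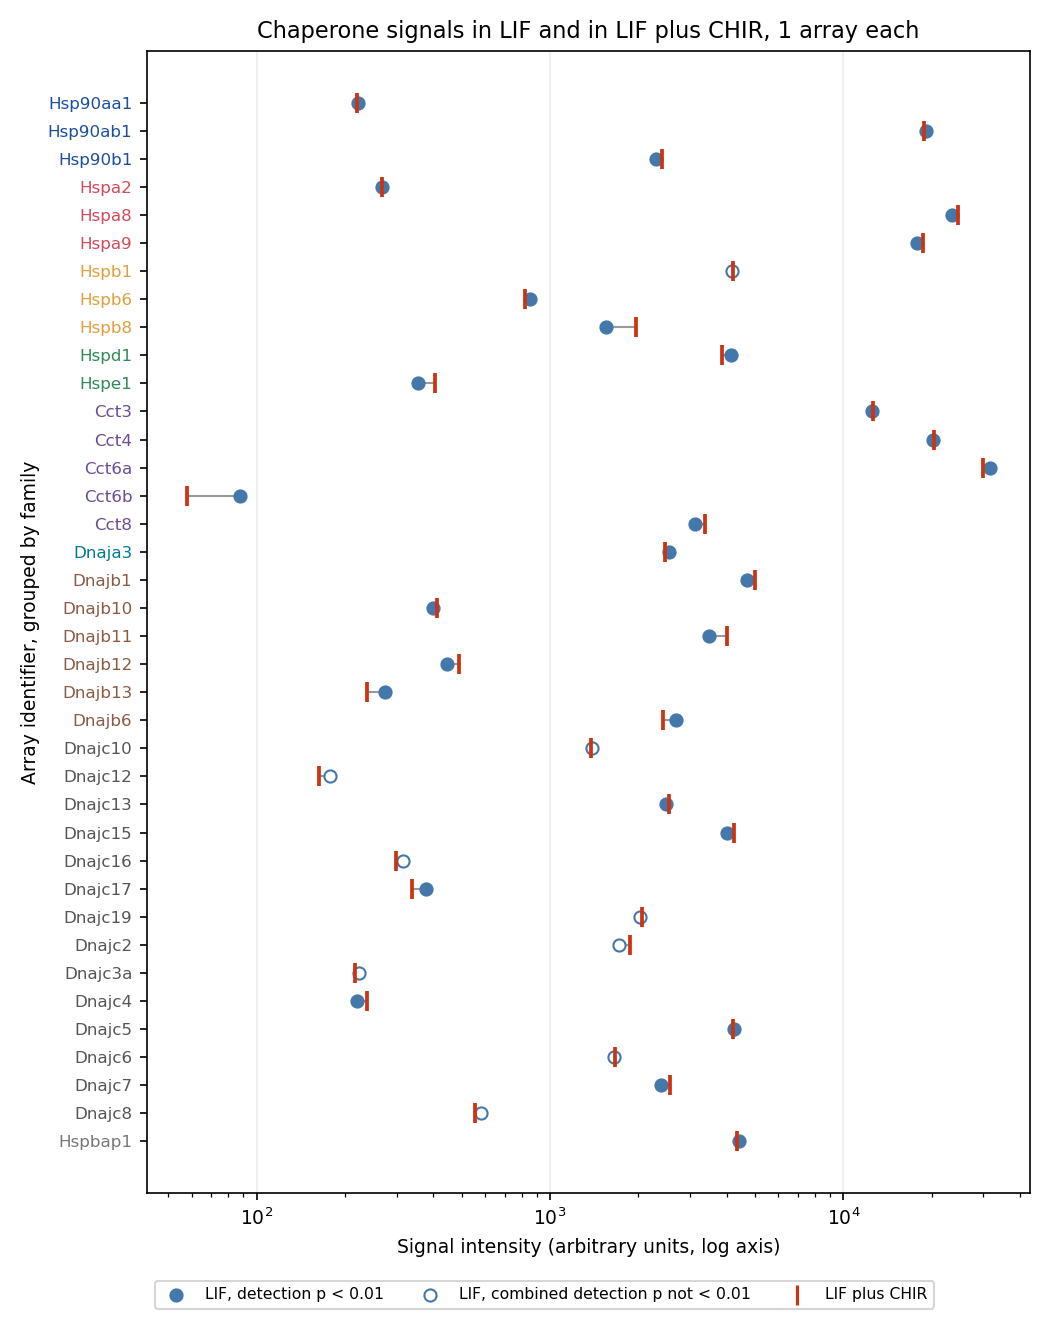
Signal intensity in arbitrary units (horizontal log axis) of the 38 heat shock and chaperone identifiers with a signal above background, in LIF (circles) and in LIF plus CHIR (red bars), 1 array each. Filled circles mark the 29 that were detected and open circles the 9 whose combined detection p-value was not under 0.01; the marks nearly coincide for most, and are farthest apart for Cct6b (87.9 and 57.9) and Hspb8 (1548 and 1967).

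Of the TRiC subunits, those with strong signals were level. Cct4 had a signal of 20239 in LIF and 20303 with CHIR, Cct3 had 12566 and 12598, and Cct6a had 31530 and 29965. Cct8 had 3116 and 3378, which is 1.08-fold higher. Tcp1, the first subunit of the ring, which the identifier rule does not take, had 3924 and 3981. The log2 fold changes of these 5 subunits were 0.00, 0.00, -0.07, 0.12 and 0.02. Cct2, Cct5 and Cct7, which are parts of the same ring, were not detected, with signals of 28.2 and 35.6 for Cct2, -0.09 and 3.24 for Cct5 and -2.22 and 1.77 for Cct7. Their values set no level for those RNAs. Cct6b, a form of the zeta subunit known from testis, was the detected member with the largest decrease, from 87.9 in LIF to 57.9 with CHIR, 1.52-fold lower (log2 fold change -0.60). Its signals lie close to the controls, and among the 1825 detected identifiers that stayed under 100 on both arrays, 20.7% passed 1.5-fold in either direction and 10.3% as lower. Of the 1068 among them that were detected on both arrays, as Cct6b was, 5.71% passed 1.5-fold and 3.65% as lower, and their central 95% ran from -0.64 to 0.56, with Cct6b near its lower end. After background correction with normexp fitted on identifiers with 1 probe, Cct6b was under 1.5-fold, with a log2 fold change of -0.49. After normexp on all identifiers it was at -0.03, but that fit had a background SD of 588.4 in LIF and 585.8 with CHIR. Signals far under that SD are drawn together by the fit, so it cannot decide on Cct6b.

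**Figure D3:**
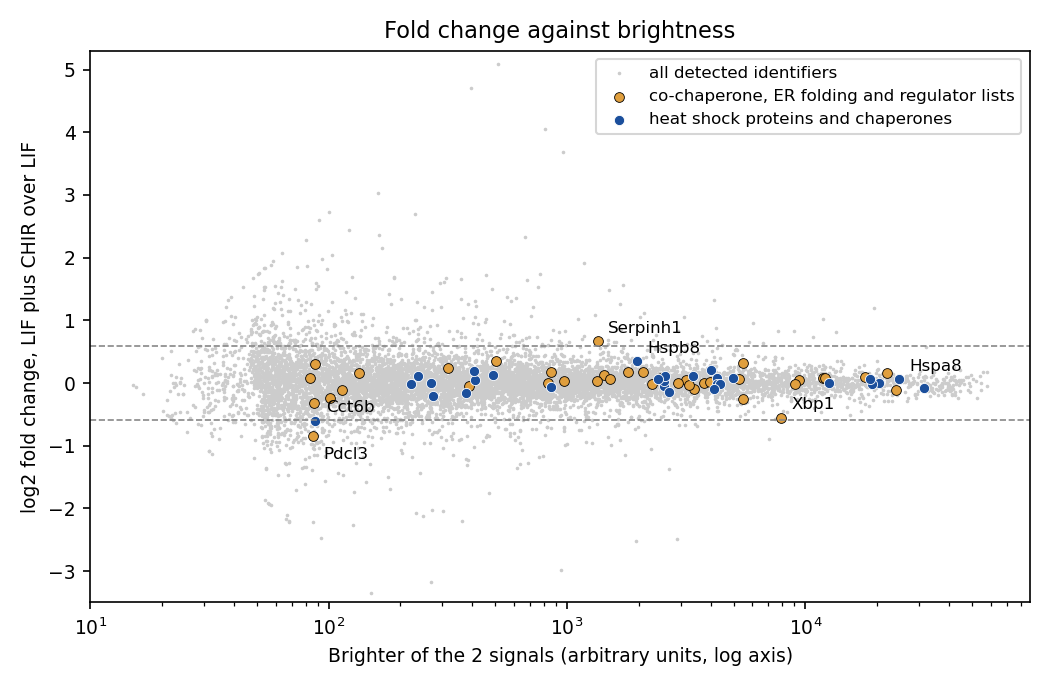
Log2 fold change of LIF plus CHIR over LIF (vertical axis) against the brighter of the 2 signals in arbitrary units (horizontal log axis) for all 9615 detected identifiers in grey, the 29 detected chaperones in blue and 38 detected genes of the co-chaperone, ER folding and regulator lists in orange. Dashed lines mark 1.5-fold; the grey cloud is widest under a signal of 100, where Cct6b lies, and the bright chaperones such as Hspa8 lie close to 0.

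J-domain proteins made up more than any other family, with 37 identifiers, of which 13 were detected. Their log2 fold changes ran from -0.21 to 0.20 with a median of 0.04, 8 of them above 0. Of the 13, 0 reached the 25% limit, which 8.51% of all identifiers detected on both arrays reached as higher and 9.09% as lower. In the Dnaja group, Dnaja3, a partner of mitochondrial Hsp70, was the 1 detected identifier, with signals of 2550 in LIF and 2468 with CHIR (log2 fold change -0.05). Dnaja1 and Dnaja2, the main J-domain partners of Hsc70 in the cytosol, were not detected. In the Dnajb group the largest increase was that of Dnajb11, a co-chaperone of BiP in the ER, from 3493 to 4024, or 1.15-fold. Dnajb12, a J-domain protein in the ER membrane, followed with 446.8 and 490.1 (1.1-fold), and Dnajb10, now named Dnajb2, had 398.0 and 410.4 (1.03-fold). The largest decreases were those of Dnajb13, a protein of sperm flagella and cilia, from 273.8 to 237.1 or 1.15-fold, and of Dnajb6.

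In the Dnajc group 6 of 21 identifiers were detected. Dnajc4 had the largest increase, from 220.0 in LIF to 237.7 with CHIR (log2 fold change 0.11), and Dnajc7, which joins Hsp70 and Hsp90, had 2387 and 2572, also 0.11. Dnajc15, a J-domain protein of the mitochondrial inner membrane, had 4019 and 4250 (0.08). Dnajc17 had the largest decrease, from 377.1 to 338.0 (-0.16), and Dnajc5, the cysteine string protein of synaptic vesicles, had 4254 and 4191 (-0.02). Dnajc13, which acts in endosomal sorting, had 2487 and 2548 (0.04).

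A further 8 Dnajc identifiers and Hspb1 had signals above background on both arrays and combined detection p-values that were not under 0.01. Each of these 9 appeared to be measured by several probes, since their p-values are not multiples of 1 over 936, the number of negative controls that accounts for the most p-values. The same was seen over the whole arrays, where 260 of the 3335 identifiers with a signal of 1000 or more on both arrays (7.80%) were not detected, and 0 of the 260 appeared to have 1 probe. The 8 Dnajc identifiers had log2 fold changes from -0.13 to 0.13. Dnajc12, a J-domain protein linked to amino acid hydroxylases, had 178.2 in LIF and 163.4 with CHIR, and Dnajc2, a ribosome-bound J-domain protein, had 1713 and 1879. Dnajc10, a reductase of the ER, had 1387 and 1378. Dnajc19, a part of the mitochondrial import motor, had 2030 and 2062, and Dnajc6, the auxilin that strips clathrin coats with Hsc70, had 1652 and 1661. Dnajc3a (now Dnajc3), an inhibitor of the kinase Perk, had 223.1 and 216.6, Dnajc16 had 315.8 and 298.6, and Dnajc8, a splicing-associated protein, had 582.8 and 552.9. With these 9 included through a minimum signal in place of the detection p-value (51.9 in LIF and 47.1 with CHIR, the lowest detected signals of identifiers with 1 probe), an alternative chosen after seeing the data, the median over 38 members was 0.01 and Cct6b was again the 1 member past 1.5-fold, where 2.88% of all 10803 identifiers were lower and 2.55% higher by that much. The remaining 32 members were not detected and were under that minimum on both arrays. The highest signals among them were those of Dnajc18 (37.7 in LIF and 43.5 with CHIR), Hspa12a (22.2 and 36.4) and Cct2.

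By compartment, the 13 detected members of the cytosol and nucleus had a median log2 fold change of 0.00 and a range from -0.14 to 0.12. The 5 of mitochondria had a median of 0.06 and ran from -0.10 to 0.19. Those of the ER were represented by Hsp90b1 and Dnajb11 alone, at 0.07 and 0.20, with Dnajc10 (-0.01) and Dnajc3a (-0.04) besides when detected by signal. BiP itself gave no value. The ER members were therefore read beside genes of ER folding and the unfolded protein response that the identifier rule does not take. Of 20 such genes 11 were detected, and they had a median of 0.17, with 8 above 0 and 2 of the 11 within 1.1-fold (18.2%), beside 50.8% of all identifiers detected on both arrays, as all 11 were. Serpinh1 (Hsp47), the collagen-specific chaperone of the ER, had a signal of 844.2 in LIF and 1345 with CHIR, or 1.59-fold higher. It was the 1 gene of this list past 1.5-fold, where 2.37% of identifiers detected on both arrays were higher and 2.65% lower. Its log2 fold change of 0.67 lay outside the central 95% of such identifiers with a brighter signal of 1000 or more, -0.42 to 0.42. After normexp on all identifiers the log2 fold change of Serpinh1 was 0.57, under 1.5-fold, and the log2 fold change of Xbp1 was -0.64, past it. Sdf2l1, which works with BiP and Dnajb11, had 397.6 and 505.2 (1.27-fold), and Pdia3, a disulfide isomerase of glycoproteins, had 4388 and 5474 (log2 fold change 0.32). Xbp1, a transcription factor of the unfolded protein response, differed in the other direction, with 7883 in LIF and 5368 with CHIR, or 1.47-fold lower. Its log2 fold change, -0.55, was also outside -0.42 to 0.42. Sil1, an exchange factor of BiP, had 101.5 and 86.0, and Atf4, a stress transcription factor, had 3419 and 3185. The list thus held values on both sides of 0, with 72.7% of the 11 above it, beside 49.3% of all identifiers detected on both arrays. Detected by signal, Calr (-0.04) and Sel1l (-0.34) joined the list, both below 0, and 8 of 13 were above 0.

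**Figure D4:**
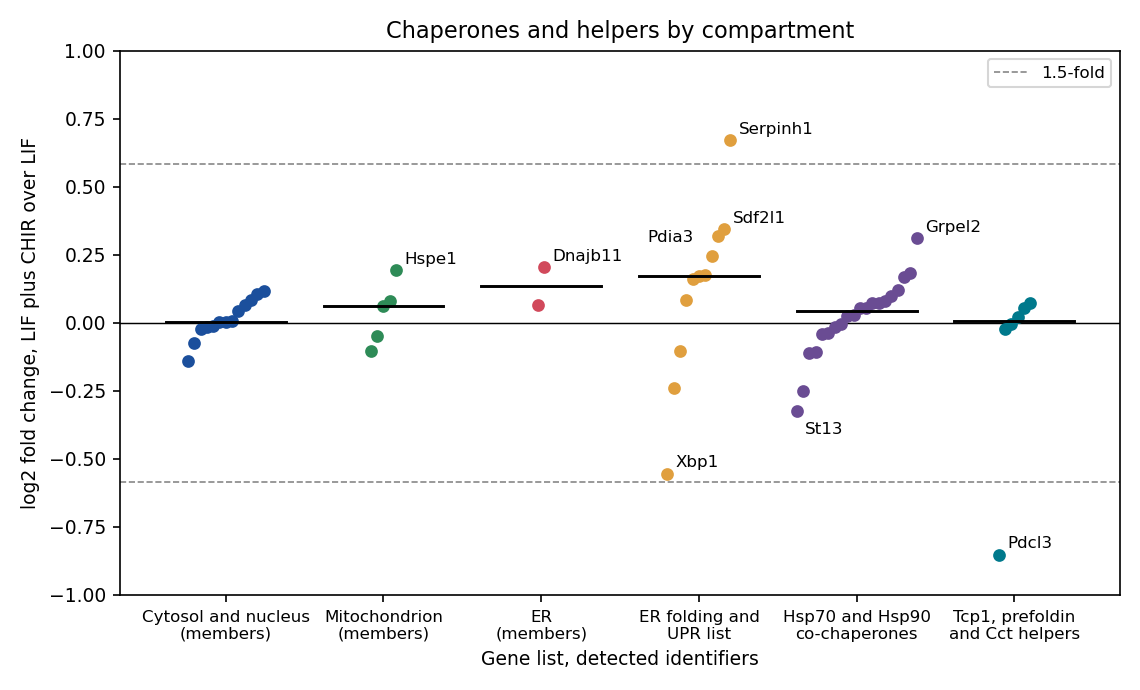
Log2 fold change of LIF plus CHIR over LIF (vertical axis) of detected identifiers in 6 lists (horizontal axis): chaperone members of the cytosol and nucleus, of mitochondria and of the ER, the list of ER folding and unfolded protein response (UPR) genes, co-chaperones of Hsp70 and Hsp90, and Tcp1 with prefoldin and Cct helpers. Each point is 1 identifier and black bars are medians, which are 0.00, 0.06, 0.14, 0.17, 0.04 and 0.01; dashed lines mark 1.5-fold.

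Most co-chaperones, of the cytosol and of mitochondria, were close to level. Of 26 co-chaperones of Hsp70 and Hsp90, 20 were detected, all on both arrays, with a median of 0.04. Of the 20, 0 passed 1.5-fold, and 15 were within 1.1-fold (75.0%). Of all identifiers detected on both arrays, 2.37% were higher and 2.65% lower by 1.5-fold, and 50.8% were within 1.1-fold. Stip1 (Hop), which passes clients from Hsp70 to Hsp90, had signals of 11489 in LIF and 12144 with CHIR, and the Hsp90 activator Ahsa1 had 3028 and 3143. The largest increases were those of Grpel2, an exchange factor of mitochondrial Hsp70, from 70.5 to 87.4, and of Tomm34, from 1593 to 1808. The largest decreases were those of St13 (Hip), from 86.9 to 69.4, and of the Hsp90 partner Chordc1, from 5499 to 4617. Among Tcp1, prefoldin and the Cct helpers, 6 of 8 matched genes were detected, and Pdcl3, a phosducin-like protein that binds TRiC, was 1.81-fold lower, from 85.6 to 47.4, again close to the controls. Its log2 fold change, -0.85, lay outside the central 95% of identifiers under 100 detected on both arrays, -0.64 to 0.56. After normexp on identifiers with 1 probe the log2 fold change of Pdcl3 was -0.68, still past 1.5-fold. After normexp on all identifiers it was -0.03, under 1.5-fold, but the background SD of that fit again lay far above the signals. Hsf1, the heat shock factor, had signals of 3371 and 2959 with combined detection p-values of 0.43 and 0.39, so it did not count as detected. Hsbp1, which binds it, had 827.3 and 831.2. Over all 59 matched genes of the 4 lists, 38 were detected, 1 was at least 1.5-fold higher (Serpinh1) and 1 at least 1.5-fold lower (Pdcl3), beside 2.37% and 2.65% of all identifiers detected on both arrays, as 37 of the 38 were.

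For comparison, the proteasome, which degrades what chaperones cannot rescue, had 40 identifiers for its subunits, of which 24 were detected. Their median log2 fold change was -0.03, with 8 above 0 and 16 below. Of the 24, 0 passed 1.5-fold, where 4.11% of all detected identifiers were higher and 4.02% lower. Of those detected on both arrays, as 22 of the 24 were, 2.37% were higher and 2.65% lower. Within 1.1-fold were 79.2% of the 24, beside 75.9% of the chaperones and 47.7% of all detected identifiers (50.8% of those detected on both arrays). For the proteasome, the co-chaperones and the ER folding list such shares were not matched by brightness. Among identifiers of 1000 or more detected on both arrays, 63.2% were within 1.1-fold. The difference between the gene families was not tested, since each condition had 1 array.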

How the data were processed

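Illumina beadchips were hybridised with RNA of mESCs, 1 array for LIF and 1 for LIF plus CHIR, and grouped by the sample titles. Per identifier and array, the authors deposited a background-subtracted intensity (signal) with its detection p-value, in a longer table and in one of 11702 identifiers, whose shared values differed in 0 cases. The intensity is linear. The normalization is not given in the sources used here. From these, log2 fold changes were computed (pandas 2.3.3, numpy 2.4.6 and, for plots, matplotlib 3.10.9, in Python 3.11.15). Identifiers were used where either array gave a detection p-value under 0.01, and signals under the lowest detected signal of their array (15.1 in LIF, 14.8 in LIF plus CHIR) were raised to it. The number of negative controls, 936, is the one of which the most p-values are multiples (within 0.001 of a whole control), and p-values on that grid on both arrays were taken to mean 1 probe. The calculation was tested on simulated data with planted changes well past 1.5-fold and less spread than on these arrays. That checks the code and not calls near 1.5-fold. Named were the detected members (of Dnaj groups the 3 largest changes each way) and, of the helper lists, genes past 1.5-fold and the 3 largest changes each way, and others beside Hspa5 and Hspa9. The rest were named after their values were seen. The members and lists were chosen with earlier results of these data known. Of the members, 60 have a gene number in the table and 68 a symbol in RefSeq (GRCm38.p6). Of 60 helper genes, 59 were matched, Bag6 and Manf as Bat3 and Armet. The files name no genome build, and coordinates are those of the RefSeq promoter windows. The number of arrays limits the precision. Alternatives were other normalizations, normexp background correction with an offset of 16 (limma 3.58.1, R 4.3.3), other detection filters, minimum signals and fold limits, the shorter table and 1 value per gene.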

Additional observations from a re-analysis of the deposited data

How the results depend on the processing

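No paired analysis was possible because LIF and LIF plus CHIR had 1 array each. Without replicates, a median or single value was counted as moved when it changed by over 1.5-fold or crossed 1.5-fold, and a count when it changed by over 1.5 times. The count of chaperones higher with CHIR by 1.5-fold or more, 0, became 1 at a detection p-value under 0.05 (Hspa12a), 2 without a detection filter and 1 at a limit of 25%. The count lower by as much, 1, became 0 with normexp on all identifiers, 0 with normexp on identifiers with 1 probe and 0 at a limit of 2-fold, and 2 without a detection filter. For the helper lists, the higher count of 1 became 0 with normexp on all identifiers, 2 without a detection filter, 2 at a limit of 25% and 0 at a limit of 2-fold, and the lower count of 1 became 3 at 25% and 0 at 2-fold. With normexp on all identifiers the log2 fold change of Cct6b was -0.03, the log2 fold change of Pdcl3 -0.03, the log2 fold change of Serpinh1 0.57 and the log2 fold change of Xbp1 -0.64, with a fitted background SD of 588.4 in LIF and 585.8 in LIF plus CHIR, against 15.7 on each array when fitted on identifiers with 1 probe. The median over the chaperones ran from -0.01 to 0.01 over all alternatives run, that of the ER folding list from 0.09 to 0.18, and no result of at least 1.5-fold changed direction. Quantile normalization, equal medians, detection on both arrays, no minimum signal, the higher minimum signal, the shorter table, 1 value per gene and detection by signal, the last chosen after seeing the data, moved no result by these limits. Several of these could not move the members. Every detected member was detected on both arrays and lay above the main and the higher minimum signal. The shorter table held the same values, and no members shared a gene number. Identifiers near the negative controls are limited most, and normexp fitted on all identifiers cannot decide on them.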
